A study of Mus musculus with 4 samples.

Results

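The 4 genes followed here link dietary fructose to transcription in the mouse small intestine and are the fructose-breakdown enzyme genes Khk and Tkfc, the sugar-sensing transcription factor Mlxipl (ChREBP) and Txnip, a target gene of that factor. They were chosen by name and make up 4 of the 27998 genes in the deposited count matrix, and all 4 were among the 17972 genes with at least 1 UMI (unique molecular identifier, a count of captured transcripts). The study asked how a ketogenic diet, very low in carbohydrate and high in fat, acts on the intestine, and its title concerns tumorigenesis. Male mice were kept on the ketogenic diet or on a control diet, their small intestines were dissociated, and 2 single-cell libraries per diet were sequenced. The sources used here do not give strain, age or time on the diet, no genetic change is named for either group, and both control libraries came from mice on the control diet. The authors assigned each of the 15053 cells to 1 of 7 epithelial types: enterocytes, transit amplifying cells, stem cells, goblet cells, a Paneth class, enteroendocrine cells and tuft cells.

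Fructose that enters an intestinal cell is phosphorylated to fructose-1-phosphate by ketohexokinase, the product of Khk. Triokinase, encoded by Tkfc, phosphorylates the glyceraldehyde that is released further along the route so that it can join glycolysis. ChREBP, the product of Mlxipl, binds DNA together with its partner Mlx when sugar phosphates are plentiful and activates genes of sugar breakdown and fat synthesis; MondoA, encoded by Mlxip, is its close relative. Txnip encodes a thioredoxin-binding alpha-arrestin that restrains glucose uptake and is a widely used readout of both factors.

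In mm10, Khk lies at chr5:30921431-30931248 and Mlxipl at chr5:135089890-135138382, both on the plus strand, with Txnip at chr3:96557957-96561883 on the plus strand and Tkfc at chr19:10587791-10605654 on the minus strand (GENCODE M21). The stretch from 250 bases before to 50 bases after the start of each gene (RefSeq, GRCm38.p6) is printed below. ChREBP and MondoA with Mlx are known to bind pairs of E-box-like motifs. Capitals mark the palindromic E-box CACGTG in Khk and Mlxipl, and the fixed letters of the paired motif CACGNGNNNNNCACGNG in Txnip, which has no E-box. Both strands were searched for both motifs, and no match overlapped another. The windows are chr5:30921309-30921608 (plus strand) for Khk, chr19:10604209-10604508 (minus strand) for Tkfc, chr5:135089640-135089939 (plus strand) for the upstream start of Mlxipl and chr3:96557707-96558006 (plus strand) for Txnip.
Khk: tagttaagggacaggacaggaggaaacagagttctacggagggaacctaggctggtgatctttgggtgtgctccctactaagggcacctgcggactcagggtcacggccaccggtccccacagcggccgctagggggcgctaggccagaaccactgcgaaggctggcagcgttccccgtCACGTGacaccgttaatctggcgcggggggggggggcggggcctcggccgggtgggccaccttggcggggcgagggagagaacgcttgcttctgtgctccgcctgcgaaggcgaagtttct
Tkfc: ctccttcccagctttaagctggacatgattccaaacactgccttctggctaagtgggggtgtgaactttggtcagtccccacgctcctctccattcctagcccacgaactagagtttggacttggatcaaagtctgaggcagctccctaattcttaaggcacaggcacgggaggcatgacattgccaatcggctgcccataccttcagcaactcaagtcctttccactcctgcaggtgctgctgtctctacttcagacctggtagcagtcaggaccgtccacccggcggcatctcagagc
Mlxipl: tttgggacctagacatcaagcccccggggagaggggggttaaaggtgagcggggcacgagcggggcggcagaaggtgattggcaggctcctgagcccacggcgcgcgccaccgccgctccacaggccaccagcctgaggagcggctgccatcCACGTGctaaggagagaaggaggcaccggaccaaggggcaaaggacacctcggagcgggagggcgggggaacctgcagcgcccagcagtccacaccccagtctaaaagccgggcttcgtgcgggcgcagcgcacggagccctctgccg
Txnip: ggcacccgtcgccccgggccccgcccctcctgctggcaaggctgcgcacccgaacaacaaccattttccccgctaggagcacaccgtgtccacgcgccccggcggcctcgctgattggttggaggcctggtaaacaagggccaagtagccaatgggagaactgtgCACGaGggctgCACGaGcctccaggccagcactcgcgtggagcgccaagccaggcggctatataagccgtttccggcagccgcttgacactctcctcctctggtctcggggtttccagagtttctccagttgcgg

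With −1 as the last base before the start, the E-box spans −71 to −66 in Khk and −98 to −93 at the upstream start of Mlxipl, and the paired motif of Txnip spans −85 to −69. Neither motif was found in the Tkfc window or in that of the downstream Mlxipl start at chr5:135106641-135106940. Other spellings or arrangements of paired E-box-like motifs were not searched, so such sites could be present in any window. The RefSeq start of Tkfc used here lies inside the GENCODE extent of the gene, and the stretch at the GENCODE start was not searched. The RefSeq start of Khk and its E-box also lie inside the GENCODE extent of that gene. The E-box occurs in 2349 of 32851 promoter windows of this length (7.15%), and the paired motif in 16 of them (0.0487%). Arrdc4, another alpha-arrestin gene known as a MondoA target, has an E-box at −193 to −188. A match of letters is a description of the window and shows no binding.

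The libraries held 3194 and 3414 cells on the ketogenic diet and 3549 and 4896 on the control diet, with 27316428 and 30292457 UMIs against 29186729 and 34106639. Enterocytes made up 1748 and 1799 ketogenic and 2156 and 2771 control cells, with a median of 9323 and 9629 UMIs per ketogenic cell and 8413.5 and 7342 per control cell. The median share of mitochondrial UMIs in enterocytes was 10.1% and 8.60% in ketogenic libraries 1 and 2 and 10.4% and 8.58% in control libraries 1 and 2. Marker genes of each of the 7 types were highest in the type of that name in 4 of 4 libraries. Pairs of libraries shared 10 to 26 cell barcodes. No pair was a copy, with chi-square values of counts over genes 21.3 (ketogenic) and 28.3 (control) times their degrees of freedom. Nothing in the sources says how many mice stand behind a library, so a p-value here reflects only how far these libraries spread, which could be technical. With 2 libraries against 2, an exact two-sided permutation test has 6 assignments and cannot go below a p of 0.33, so the tests below are those of edgeR, which shares its estimate of spread across genes.

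Across the whole epithelium Tkfc fell on the ketogenic diet, Khk and Mlxipl had lower levels that did not pass the test, and Txnip overlapped between the diets. Of the 4 genes, Tkfc passed an adjusted p of 0.05 (edgeR quasi-likelihood test with Benjamini-Hochberg adjustment), where 0.172% of the 12784 genes tested passed in either direction. In Khk, Tkfc and Mlxipl both ketogenic libraries lay below both control libraries, as they did in 21.1% of all genes tested. All levels in this paragraph and in those on the diet are CPM, a gene's UMIs per 1e6 UMIs of the summed cells, scaled by edgeR's TMM method. Khk had 117 and 92.2 CPM in ketogenic libraries and 225 and 212 CPM in control libraries, a log2 fold change of -1.06 ± 0.13 (SE, 2 libraries per diet) that just missed the threshold (edgeR adjusted p = 0.0538). Tkfc fell to 52.8 and 52.3 CPM in ketogenic libraries, against 125 and 105 CPM in control libraries, a log2 fold change of -1.13 ± 0.11 (edgeR adjusted p = 0.0306). The call on Tkfc was lost without ketogenic library 1 (adjusted p = 0.0553) or 2 (0.143). Mlxipl had 74.1 CPM in each of the ketogenic libraries and 115 and 97.4 CPM in control libraries (-0.52 ± 0.11, edgeR adjusted p = 0.176). Txnip had 125 and 103 CPM in ketogenic and 99.8 and 104 CPM in control libraries, which overlap (0.16 ± 0.12, edgeR adjusted p = 0.657). Sums over all cells cannot tell less RNA per cell from fewer cells of a type, which the values within types below address.

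In enterocytes, the absorptive cells of the villus, Tkfc again fell, and Khk had lower levels without overlap that did not pass the test. Khk, which commits fructose to breakdown, had 164 and 121 CPM in ketogenic enterocytes and 309 and 287 CPM in control enterocytes. The lowest control library was well above the highest ketogenic one, at a 2.09-fold lower fitted level on the ketogenic diet, yet the test did not pass (log2 fold change -1.06 ± 0.15, edgeR adjusted p = 0.0689). It passed in 6 of 11 other settings, over which its log2 fold change ran from -1.30 to -0.86 and its adjusted p from 6.50e-08 to 0.197. Counts taken at the 3′ end of transcripts do not separate the Khk-A and Khk-C isoforms, which differ in an internal exon.

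Tkfc, the triokinase, fell to 73.6 and 65.8 CPM in ketogenic enterocytes, against 168 and 141 CPM in control enterocytes. This was a 2.21-fold lower level (log2 fold change -1.15 ± 0.13, edgeR adjusted p = 0.0366), and Tkfc was the 1 gene of the 4 that passed, where 0.18% of 11697 genes did. Khk, Tkfc and Mlxipl had both ketogenic libraries below both control libraries, against 20.5% of all genes. The call on Tkfc was lost without ketogenic library 1 (adjusted p = 0.109) or 2 (0.151), with sums thinned to equal totals (0.0515) and without the 5% of cells with the most UMIs (0.0994), at log2 fold changes of -1.24 to -1.07. The 7 enterocyte markers summed to 2156 and 1217 CPM in ketogenic and 1875 and 1758 CPM in control enterocytes, so they overlapped between diets. Tkfc overlaps Cyb561a3 and Ddb1 on the opposite strand, and the sources used here do not say whether strand was used in counting. Cyb561a3 had 16 UMIs in all cells, while Ddb1 had 11538.

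Mlxipl had 84.8 and 81.1 CPM in ketogenic enterocytes and 130 and 107 CPM in control enterocytes. Mlxipl is known for an alternative upstream first exon, whose transcripts 3′ counts do not separate. The diets did not overlap, but the gap was smaller than for the enzymes and did not pass (log2 fold change -0.52 ± 0.12, edgeR adjusted p = 0.221). Txnip had 125 and 98.1 CPM in ketogenic enterocytes and 107 and 104 CPM in control enterocytes. Its control levels lay between the ketogenic ones, and the fitted log2 fold change was 0.08 ± 0.14 (edgeR adjusted p = 0.873). Txnip overlaps the antisense gene Gm15441, whose position was looked up after values were seen. Gm15441 had 295 UMIs in all cells against 12963 for Txnip.

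**Figure D1:**
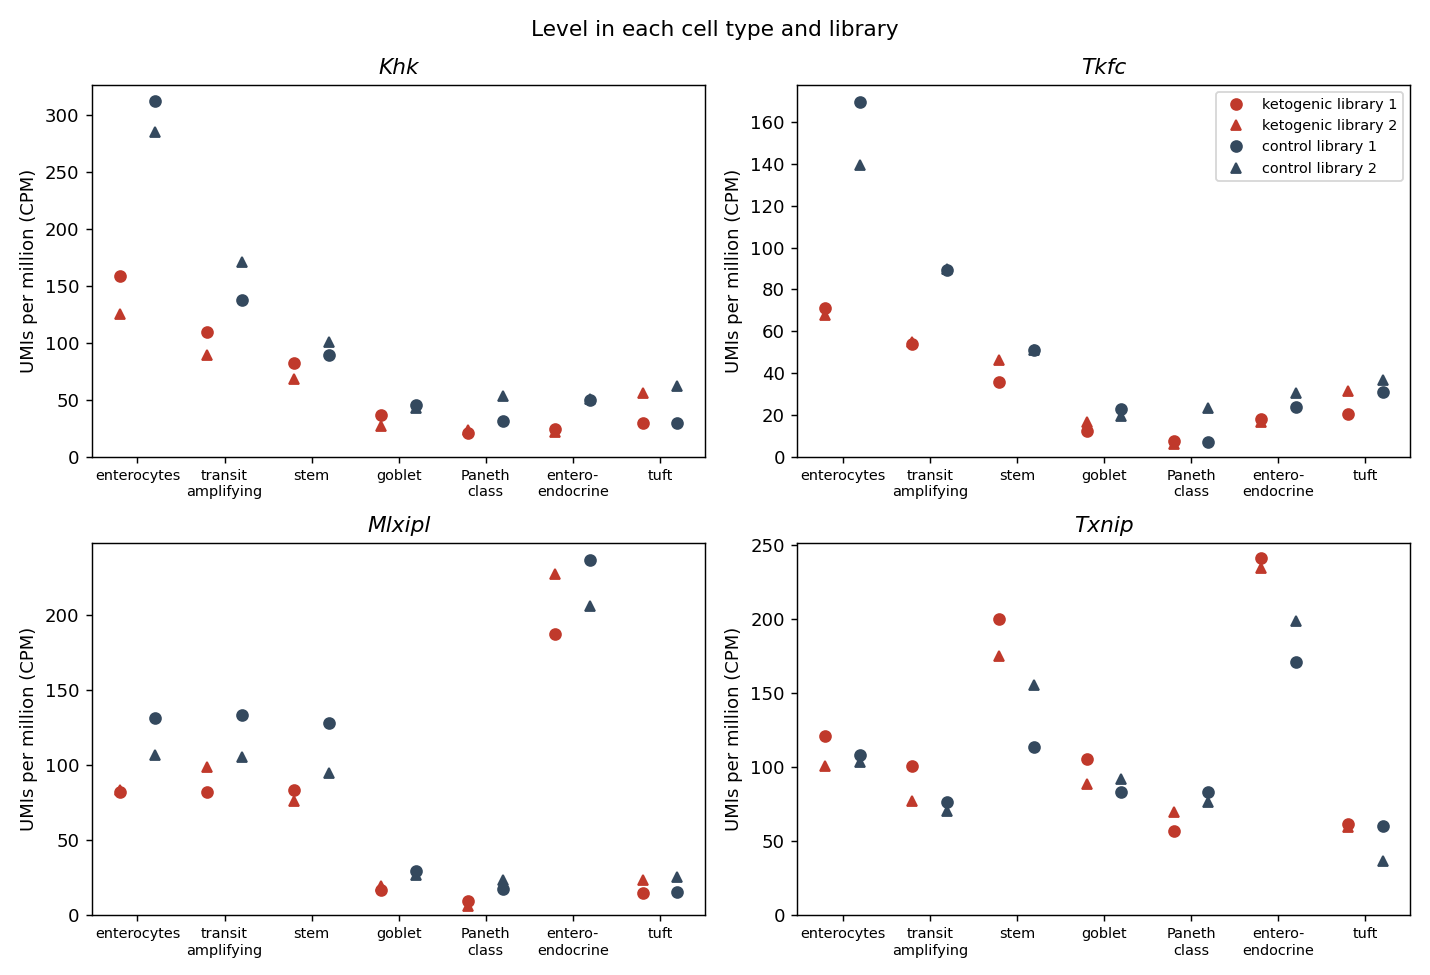
Level of Khk, Tkfc, Mlxipl and Txnip in plain CPM of the summed cells (y axis) in each of the 7 cell types (x axis), with 1 point per library, ketogenic left of control. Khk and Tkfc are highest in enterocytes, where ketogenic points lie far below control points, while Mlxipl and Txnip are highest in enteroendocrine cells.

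Transit amplifying cells, the dividing daughters of stem cells, gave the steadiest result for Tkfc. Tkfc fell to 55.5 and 54.3 CPM in ketogenic transit amplifying cells, against 87.4 and 91.0 CPM in control ones. The replicates of each diet nearly coincided, and the fall (log2 fold change -0.70 ± 0.10, edgeR adjusted p = 0.00710) passed in 11 of 11 other settings, with log2 fold changes of -0.73 to -0.64. It was the 1 gene of the 4 that passed, where 0.715% of 10069 genes did. Khk had 113 and 87.8 CPM in ketogenic and 135 and 173 CPM in control transit amplifying cells (log2 fold change -0.62 ± 0.14, edgeR adjusted p = 0.0754), with no overlap, and passed in 7 of 11 other settings. Khk, Tkfc and Mlxipl lay lower without overlap, as 19.6% of all genes did, and Txnip higher without overlap, as 20.1% did. Mlxipl (85.0 and 96.9 CPM in ketogenic, 131 and 107 CPM in control cells) and Txnip (104 and 75.8 CPM in ketogenic, 74.5 and 71.3 CPM in control cells) had log2 fold changes of -0.38 ± 0.12 and 0.30 ± 0.14, and neither passed.

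In stem cells none of the 4 genes passed by edgeR or by DESeq2, where edgeR called 0.336% of 9514 genes. At an unadjusted p under 0.05 edgeR had 2 of them lower, as were 2.82% of genes, and 1 higher, as were 3.61%. Khk had 83.5 and 68.0 CPM in ketogenic stem cells and 87.3 and 103 CPM in control stem cells (log2 fold change -0.36 ± 0.14, edgeR adjusted p = 0.571). Tkfc had 36.4 and 45.9 CPM in ketogenic and 50.05 and 51.9 CPM in control stem cells (-0.28 ± 0.16, adjusted p = 0.837). The diets did not overlap for either enzyme, but the lowest control library was close to the highest ketogenic one. Mlxipl had 85.3 and 75.4 CPM in ketogenic and 126 and 96.8 CPM in control stem cells, a difference of about the same size as in enterocytes (-0.47 ± 0.14, edgeR adjusted p = 0.293). It passed in 2 of 11 other settings, without control library 2 (-0.65, adjusted p = 0.00684) and with a replicate block (-0.45, adjusted p = 0.0386). Txnip ran the other way, with 205 and 174 CPM in ketogenic and 111 and 159 CPM in control stem cells (0.46 ± 0.14, edgeR adjusted p = 0.332). It was without overlap, as were 17.4% of genes in this direction, and it passed in the same 2 settings, without control library 2 (0.76) and with a replicate block (0.47). Khk, Tkfc and Mlxipl lay lower without overlap, against 17.5% of genes.

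The size of the diet difference was then compared between cell types directly, as the log2 fold change in enterocytes minus that in another type (edgeR interaction with library as a block). Khk and Tkfc were lowered more in enterocytes than in stem cells, by -0.75 ± 0.16 (edgeR adjusted p = 0.0128) and -0.88 ± 0.19 (adjusted p = 0.0151), and 0.259% of 11570 genes passed this test. Mlxipl (-0.07 ± 0.15, adjusted p = 0.965) and Txnip (-0.43 ± 0.15, adjusted p = 0.432) did not pass, though Txnip did without control library 2 (-0.76, adjusted p = 6.59e-05). The difference for Khk was not called without ketogenic library 1 (adjusted p = 0.119), ketogenic library 2 (0.858) or control library 1 (0.0856), and that for Tkfc not without ketogenic library 2, at differences of -0.83, -0.64, -0.56 and -0.54. The median mitochondrial share of stem cells was 16.2% and 8.52% in ketogenic and 11.5% and 8.26% in control libraries, and its part in the difference was not tested. Against transit amplifying cells neither enzyme passed (Khk -0.46, adjusted p = 0.396, and Tkfc -0.44, adjusted p = 0.433, by edgeR), where 0.0871% of 11484 genes did. Against goblet cells Khk passed (-0.61, edgeR adjusted p = 0.0333), where 0.61% of 11637 genes did, but in no fit that left out a library (adjusted p = 0.0830 to 0.708). Tkfc did not pass there (-0.63, adjusted p = 0.252).

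**Figure D2:**
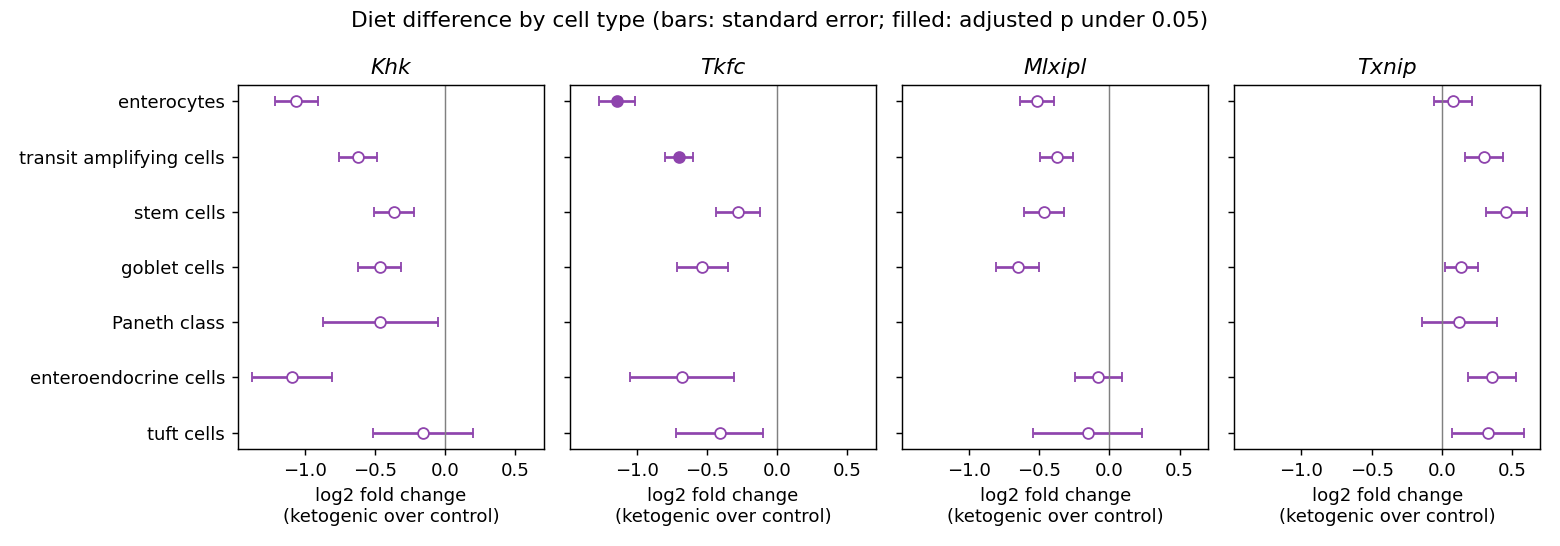
Log2 fold change, ketogenic over control, of the 4 genes in each cell type (points, with bars of 1 standard error from edgeR), filled where the adjusted p was under 0.05. Tkfc passed in enterocytes and transit amplifying cells, Tkfc and Mlxipl were too low to be tested in the Paneth class, and Txnip lies at or right of 0 in each type.

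The secretory cells had low levels of the enzymes, and none of the 4 genes passed in them by edgeR or DESeq2. In goblet cells, where edgeR called 0.521% of 9984 genes, 3 of the 4 were lower at an unadjusted p under 0.05, as were 4.54% of genes. Mlxipl had 16.8 and 18.6 CPM in ketogenic and 28.5 and 27.2 CPM in control goblet cells (log2 fold change -0.66 ± 0.15, edgeR adjusted p = 0.0875). The diets did not overlap, and Khk (-0.47 ± 0.15) and Tkfc (-0.54 ± 0.18) were likewise lower without overlap, against 19.1% of genes. In enteroendocrine cells, where edgeR called 0.0582% of 6877 genes, Khk had 30 and 13 UMIs in ketogenic and 19 and 38 in control libraries. Scaled by depth these were 25.5 and 22.4 CPM in ketogenic and 48.7 and 54.5 CPM in control cells (-1.09 ± 0.29, edgeR adjusted p = 0.577), and Khk was the 1 gene of the 4 at an unadjusted p under 0.05, with 2.43% of genes lower at that level. Khk and Tkfc lay lower without overlap there (16.1% of genes did) and Txnip higher (16.8% did). In tuft cells, where edgeR called 0.0144% of 6963 genes, none of the 4 had an unadjusted p under 0.05, which 5.34% of genes had, and only Tkfc was without overlap (16.5% of genes in that direction). In the Paneth class, where edgeR called 0.44% of 2957 genes, only Khk and Txnip were high enough to be tested, on 44 and 101 UMIs in all, and neither reached an unadjusted p of 0.05, under which 7.68% of genes lay.

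Between cell types the 4 genes had distinct distributions, given in plain CPM of summed cells as the lowest and highest of the 4 libraries and without a test. Khk was highest in enterocytes (125 to 312 CPM), then transit amplifying cells (89.2 to 170 CPM) and stem cells (68.5 to 101 CPM), each higher than the next in 4 of 4 libraries. Tuft, goblet, enteroendocrine and Paneth class cells followed at 20.9 to 62.1 CPM in an order that 2 of 4 libraries bore out at each step. Tkfc had the same first 3 places, with 67.8 to 170 CPM in enterocytes, 53.7 to 89.9 in transit amplifying cells and 35.6 to 51.0 in stem cells, and 5.79 to 36.7 CPM in the others. In stem cells Khk was at 0.285 to 0.549, and Tkfc at 0.300 to 0.681, of the level in enterocytes of the same library. Of the 7 enterocyte markers the lowest ratio there was 0.0378 to 0.0551, the median 0.0729 to 0.140 and the highest 0.469 to 1.21. Both enzymes lay above the marker median and below the highest marker in 4 of 4 libraries.

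Mlxipl was not highest in absorptive cells. Enteroendocrine cells, the hormone-secreting cells, had 188 to 237 CPM, without overlap with any other type and higher than the next in 4 of 4 libraries. Transit amplifying cells (82.1 to 134 CPM), enterocytes (82.0 to 131 CPM) and stem cells (75.9 to 128 CPM) could not be ordered beyond their spread, and goblet, tuft and Paneth class cells had 5.79 to 29.1 CPM. Within enteroendocrine cells the diets overlapped for Mlxipl, with 188 and 228 CPM in ketogenic and 237 and 206 CPM in control libraries. Txnip too was highest in enteroendocrine cells (171 to 241 CPM), followed by stem cells (113 to 200 CPM) and enterocytes (101 to 121 CPM), each above the next in 4 of 4 libraries. Goblet cells had 83.1 to 105 CPM of Txnip, transit amplifying cells 70.4 to 101, the Paneth class 57.0 to 82.9 and tuft cells 36.7 to 61.7. Transit amplifying and Paneth class cells could not be ordered for Txnip, with 2 of 4 libraries each way.

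Cell by cell, the lower Khk and Tkfc of ketogenic enterocytes showed as fewer cells with a captured transcript. With each cell thinned to 2000 UMIs, which left out 126 shallow cells of control library 2, 23.7% and 18.4% of ketogenic enterocytes held a Khk UMI, against 36.5% and 36.4% of control enterocytes. For Tkfc the shares were 12.5% and 11.6% of ketogenic and 26.3% and 21.7% of control enterocytes. The 95% exact binomial intervals of the diets, which cover counting error alone, did not overlap for either enzyme. Cells that did hold Khk had 1.24 and 1.18 UMIs per such cell in ketogenic and 1.504 and 1.47 in control libraries. With a mean of only 0.217 to 0.549 Khk UMIs per thinned enterocyte, both measures move with the mean. They cannot tell fewer expressing cells from less RNA per cell. Mlxipl was found in 18.6% and 17.0% of ketogenic and 26.9% and 20.6% of control enterocytes, and Txnip in 19.8% and 17.7% of ketogenic and 20.1% and 19.3% of control enterocytes. For Mlxipl the interval of ketogenic library 1 (16.8% to 20.5%) overlapped that of control library 2 (19.1% to 22.2%). Unthinned, Khk was seen in 57.6% and 52.5% of ketogenic and 66.7% and 62.3% of control enterocytes. Goblet cells, a type without a role in sugar absorption, held a Khk UMI in 5.67% to 8.74% of thinned cells (median 6896 to 9268 UMIs per cell before thinning). The goblet level of Khk was 0.145 to 0.231 of that in enterocytes of the same library, above the highest of the 7 enterocyte markers (0.119 to 0.181) in 4 of 4 libraries, and the part of free RNA in it was not tested.

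**Figure D3:**
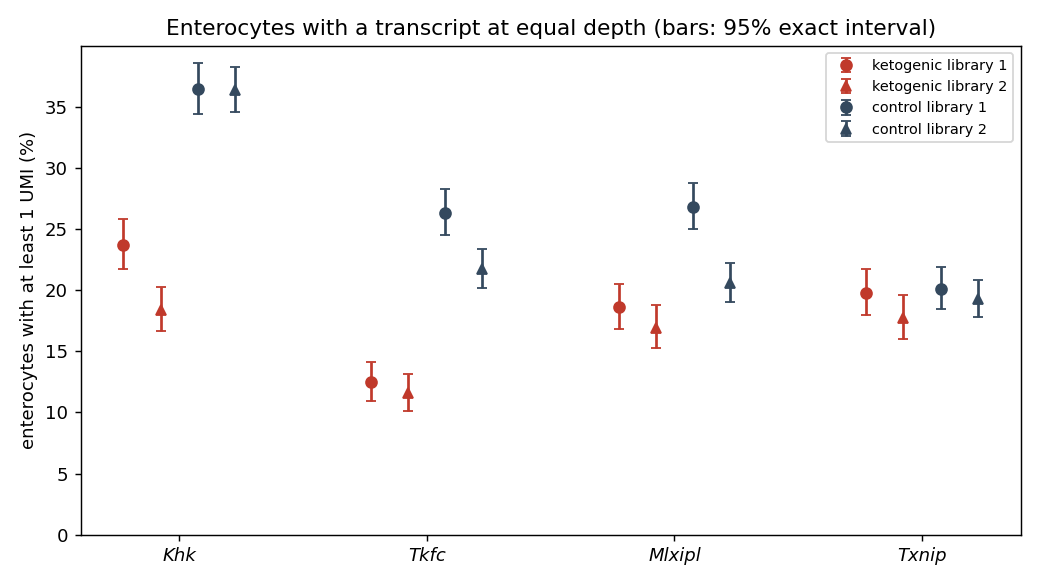
Share of enterocytes with at least 1 UMI of each gene after thinning every cell to 2000 UMIs (y axis, %), with 1 point per library, ketogenic left of control, and 95% exact binomial intervals as bars. Khk and Tkfc are found in fewer ketogenic than control enterocytes in both libraries, and Txnip in 17.7% to 20.1% of cells in each library.

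Enterocytes were also divided within each library at the median share of villus tip transcripts among tip and base transcripts, a split on few counts, with medians of 0% to 2.27%. In control library 2 the cut was at 0%, so any tip UMI made a scored cell tip-rich. Within 5 percentage points of the cut lay 1182 of 1508 and 1355 of 1648 scored ketogenic cells. In control libraries 1 and 2 these were 1742 of 2048 and 2048 of 2544, so the split resolves villus position poorly. In the tip-rich enterocytes Khk had 190 and 148 CPM in ketogenic and 380 and 379 CPM in control libraries (log2 fold change -1.17 ± 0.14, edgeR adjusted p = 0.0171). Tkfc had 81.8 and 74.9 CPM there in ketogenic and 203 and 188 CPM in control libraries (-1.32 ± 0.11, edgeR adjusted p = 0.00537). Both passed in 8 of 8 other settings, and 0.837% of 10869 genes passed in these cells. In the tip-poor enterocytes, where 0% of genes passed by edgeR against 46 genes by DESeq2 and 517 at an unadjusted p under 0.05, Khk and Tkfc had log2 fold changes of -0.86 ± 0.21 and -0.89 ± 0.20. Whether the 2 sets differ in their response was not tested.

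Beside Tkfc, the transporter gene Slc2a2 fell in ketogenic enterocytes, and no other listed gene of fructose uptake and breakdown passed. Of 9 genes listed for fructose uptake and breakdown, 8 were tested in enterocytes, and Slc2a2 and Tkfc fell while none rose. DESeq2 called 4 lower and 0 higher, where it called 0.989% of 11834 genes lower and 0.515% higher. At an unadjusted p under 0.05 edgeR had 4 lower and 1 higher, where 5.45% of genes were lower and 4.46% higher. The median log2 fold change of the 8 was -0.50, against 0.02 over all genes tested.

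Slc2a2, the basolateral GLUT2 transporter of glucose and fructose, had 16 and 12 UMIs in ketogenic and 199 and 264 in control enterocytes. These were 1.11 and 0.710 CPM in ketogenic and 10.9 and 13.7 CPM in control enterocytes, a log2 fold change of -3.76 ± 0.28 (edgeR adjusted p = 0.00784) that just missed the threshold without the 5% of cells with the most UMIs (adjusted p = 0.0510). Slc2a5, the apical fructose transporter GLUT5, had 5.40 and 3.43 CPM in ketogenic and 20.1 and 11.4 CPM in control enterocytes. The diets did not overlap, at a 3.59-fold lower fitted level, but the control libraries differed and the test did not pass (-1.84 ± 0.33, edgeR adjusted p = 0.120). Slc2a5 was highest in enteroendocrine cells (28.3 to 45.2 CPM in plain CPM), ahead of enterocytes in 4 of 4 libraries. In goblet cells it had 12.2 and 7.48 CPM in ketogenic and 7.20 and 10.0 CPM in control libraries, which overlap, and its diet difference was larger in enterocytes than in goblet cells by -2.02 on the log2 scale (edgeR adjusted p = 0.00583), but not without control library 1 (-1.35, adjusted p = 0.382).

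Sord, the sorbitol dehydrogenase that yields fructose, had 50.9 and 59.7 CPM in ketogenic and 35.4 and 46.5 CPM in control enterocytes (log2 fold change 0.43 ± 0.16, edgeR adjusted p = 0.433). Akr1b3, the aldose reductase before it, was at 0.28 ± 0.14 (adjusted p = 0.570). Both lay higher without overlap, as did 22.9% of genes, and neither passed.

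In transit amplifying cells 5 of the 9 genes were tested and Tkfc fell, where 0.715% of all genes passed. Khk and Tkfc lay lower without overlap, as did 19.6% of genes. Sord, Akr1b3 and Fbp1 lay higher without overlap, as did 20.1% of genes, and none of them passed. The median log2 fold change of the 5 was 0.23, against 0.00 over all genes. In stem cells 5 of the 9 were tested and none passed by edgeR or DESeq2. Of these, 1 was lower at an unadjusted p under 0.05 by edgeR, as were 2.82% of genes. The median of the 5 was 0.04, against 0.00 over all genes. Of 7 other sugar kinase genes, among them the hexokinases, 4 were tested in enterocytes and none passed by edgeR or DESeq2. Of the 4, 1, Hkdc1, was lower at an unadjusted p under 0.05 by edgeR, as were 5.45% of all genes. The median log2 fold change of the 4 kinase genes was 0.09.

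**Figure D4:**
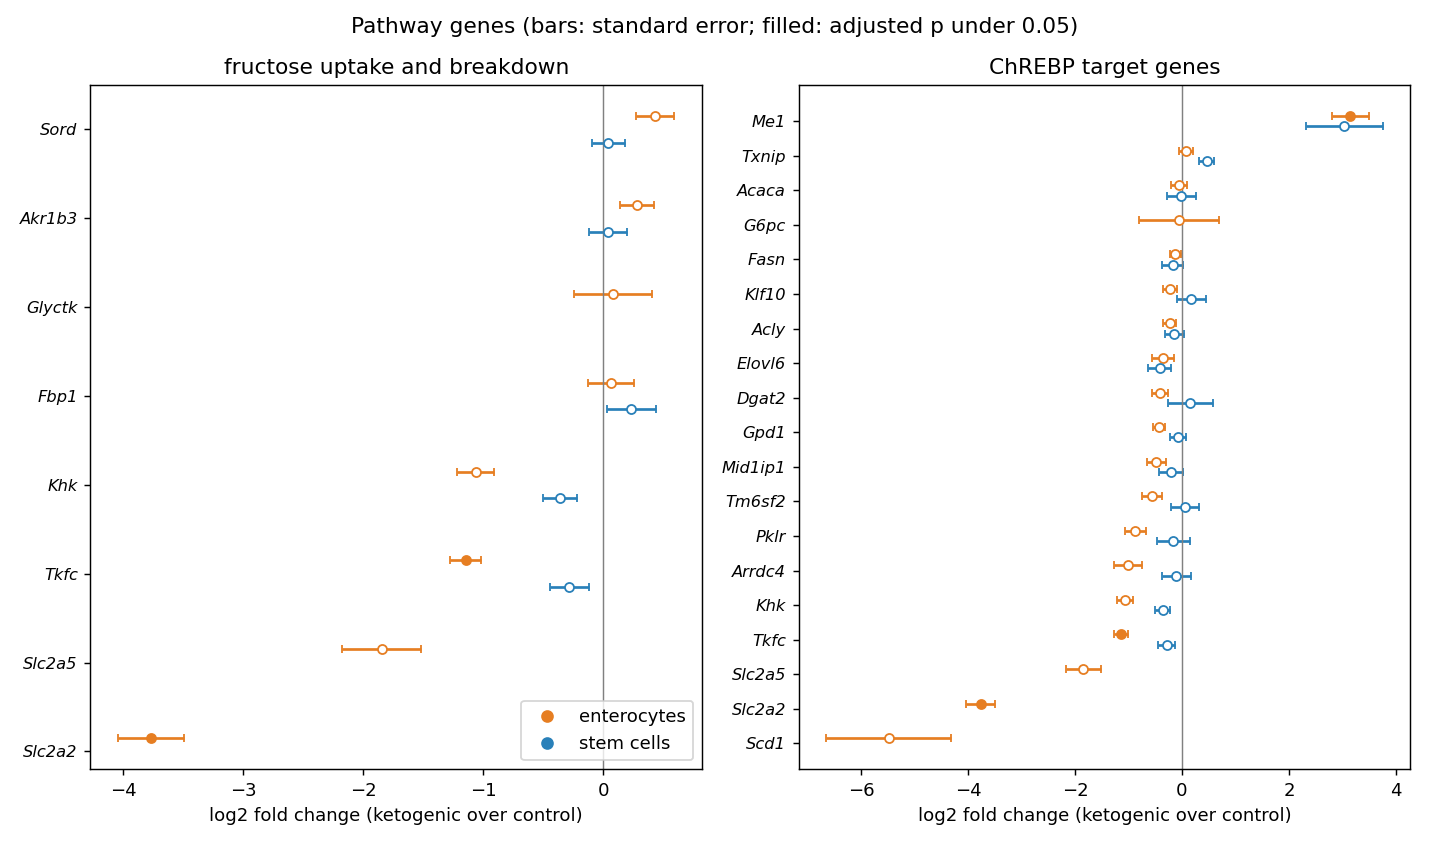
Log2 fold change, ketogenic over control (x axis), of the tested genes listed for fructose uptake and breakdown (left) and as ChREBP targets (right) in enterocytes and stem cells, with bars of 1 standard error and filled points where the adjusted p was under 0.05. Enterocyte points of Khk, Tkfc and Slc2a2 lie at or below -1.06, their stem cell points where tested nearer to 0, and Me1 lies far to the right in both; the value of Scd1 rests on 1 UMI in ketogenic enterocytes.

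Mlxipl belongs to a family of sugar-responsive factors and their partners. Of 6 Mondo, Mlx and Mad-type factor genes none passed in enterocytes by edgeR, against 1 higher by DESeq2, which called 0.515% of all genes higher. At an unadjusted p under 0.05 edgeR had 2 lower and 1 higher, where 5.45% of genes were lower and 4.46% higher. Mlxip, which encodes the MondoA paralog, had 42.4 and 33.8 CPM in ketogenic and 20.8 and 24.5 CPM in control enterocytes. Both ketogenic libraries were above both control libraries, opposite to Mlxipl, without passing (log2 fold change 0.75 ± 0.15, edgeR adjusted p = 0.152). In stem cells Mlxip had 45.3 and 44.4 CPM in ketogenic and 29.6 and 34.7 CPM in control libraries (0.46 ± 0.17, edgeR adjusted p = 0.508), again without overlap. Mlx, the shared partner, had 56.8 and 51.6 CPM in ketogenic and 71.3 and 53.6 CPM in control enterocytes, which overlap (-0.21 ± 0.15, edgeR adjusted p = 0.678).

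Among 23 genes listed as ChREBP targets, a list that shares Khk, Tkfc, Slc2a2 and Slc2a5 with the fructose list, 19 were tested in enterocytes. Slc2a2 and Tkfc fell and Me1 rose by edgeR, which called 0.18% of genes in either direction. Of the 19, 17 had a negative log2 fold change, and the median was -0.43, against 0.02 over all genes. Both ketogenic libraries lay below both control libraries in 14 of the 19, against 20.5% of all genes. They lay above in 1, against 22.9%. Me1, the cytosolic malic enzyme that supplies NADPH, had 55.8 and 28.6 CPM in ketogenic enterocytes and 5.51 and 3.98 CPM in control enterocytes. It rose 8.87-fold (log2 fold change 3.15 ± 0.34, edgeR adjusted p = 0.0366), and Me1 and Txnip were the 2 targets with a positive value. Me1 also rose in transit amplifying cells (2.85 ± 0.44, adjusted p = 0.00833) and in goblet cells (2.52 ± 0.40, adjusted p = 0.00576). The calls on Me1 were lost in enterocytes without the 5% of cells with the most UMIs (edgeR adjusted p = 0.0930), in transit amplifying cells without ketogenic library 1 (log2 fold change 2.24, adjusted p = 0.0989) and in goblet cells with DESeq2 (adjusted p = 0.0649). In transit amplifying cells 15 targets were tested, and Tkfc fell and Me1 rose by edgeR, where 0.715% of genes passed. A negative log2 fold change was found for 13 of the 15, with a median of -0.32, against 0.00 over all genes. Both ketogenic libraries lay below both control libraries in 8, against 19.6% of genes, and above in 2, against 20.1%. In goblet cells 9 of 16 tested targets were negative, with a median of -0.08. In stem cells 15 targets were tested, none passed by edgeR or DESeq2, and the median was -0.10. Of these, 1 was lower at an unadjusted p under 0.05 by edgeR, as were 2.82% of genes, and 2 were higher, as were 3.61%. Of the 19 targets in enterocytes DESeq2 called 7 lower and 1 higher, where it called 0.989% of genes lower and 0.515% higher. At an unadjusted p under 0.05 edgeR had 11 lower and 1 higher, where 5.45% of genes were lower and 4.46% higher. Of the listed genes of fat synthesis in enterocytes, none but Me1 passed by edgeR. Acaca was at -0.06 ± 0.15, Fasn at -0.12 ± 0.11, Acly at -0.23 ± 0.12, Elovl6 at -0.36 ± 0.20, Dgat2 at -0.41 ± 0.15 and Mid1ip1 at -0.48 ± 0.18. Scd1, the stearoyl-CoA desaturase, had 1 and 0 UMIs in ketogenic and 50 and 15 in control enterocytes (edgeR adjusted p = 0.174). Both ketogenic libraries lay below both control libraries for Fasn, Acly, Dgat2, Mid1ip1 and Scd1, as they did in 20.5% of all genes. The diets overlapped for Acaca and Elovl6.

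Txnip and Arrdc4, alpha-arrestins that share control by MondoA and ChREBP, had fitted values of opposite sign in enterocytes, but that of Txnip was near 0. It ran from -0.12 to 0.25 over 11 other settings, so its sign is not settled. Arrdc4 had 12.5 and 15.7 CPM in ketogenic and 36.2 and 20.8 CPM in control enterocytes (log2 fold change -1.01 ± 0.26, edgeR adjusted p = 0.267). The diets did not overlap, whereas they did for Txnip, though no test of the difference between the 2 genes was made. In stem cells Arrdc4 overlapped, with 13.1 and 12.9 CPM in ketogenic and 15.8 and 12.6 CPM in control libraries (-0.10 ± 0.27, edgeR adjusted p = 0.988). Of 11 alpha-arrestin and thioredoxin genes, 10 were tested in enterocytes and none passed by edgeR. DESeq2 called 1 lower, where it called 0.989% of all genes lower. At an unadjusted p under 0.05 edgeR had 2 lower, as were 5.45% of all genes. Txn1, the thioredoxin that the Txnip protein binds, had 1644 and 1611 CPM in ketogenic and 2328 and 1924 CPM in control enterocytes (-0.38 ± 0.13, edgeR adjusted p = 0.412).

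The genes most like each of the 4 were found by the Pearson correlation of log2(CPM + 1) over the 28 sums of 7 cell types in 4 libraries, among 8746 genes with a mean of at least 5 CPM. These correlations describe levels across cell types and diets, and the sums share their libraries and depth. Khk was most like Tkfc (r = 0.93), followed by Marc2, Dgat1, Car9 and Ccl25 (0.92 to 0.93). Tkfc was most like Cyc1, Cox5b, Mdh1, Uqcrc1 and Ndufb6 (0.94 to 0.95), which encode mitochondrial respiratory chain proteins apart from the malate dehydrogenase Mdh1. Mlxipl was most like Dera, Gpd2, Cd81, Qdpr and Lrpprc (0.91 to 0.93), and its correlation was 0.70 with Txnip and 0.52 with Khk. Txnip was most like Tspan12, Dpyd, Zfp703, Ampd2 and Pkdcc (0.84 to 0.87), and its correlation with Khk was 0.03.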

How the data were processed

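Small intestines of mice on a ketogenic or a control diet were dissociated and profiled with 10x Single Cell 3′ v2 libraries, per the labels. The authors deposited a matrix of raw UMI counts and a table that gives the library, sex and type of each cell. The submitters' processing notes name Cell Ranger 2.1.0 and mm10. The sources used here do not give cell filters, doublet handling, cell type assignment or the use of strand. Cell types were used as deposited and no doublet caller was run.

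Since cells are not replicates, counts of all cells and of each cell type were added up within a library. The sums were tested in R 4.3.3 with edgeR 4.0.16 (quasi-likelihood test, TMM, filterByExpr, Benjamini-Hochberg over all genes tested, threshold 0.05), ketogenic over control. A standard error is the log2 fold change divided by the root of F. Diet differences were compared between enterocytes and another type in 1 fit of both types with library as a block. Levels between cell types are plain CPM. Shares of cells with a UMI used cells thinned to 2000 UMIs, leaving out shallower cells, with exact binomial intervals. These and all counts cover counting error only.

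The 4 genes, the 5 pathway lists and the tests were chosen with earlier results of these data known. Named genes are the 4 in every cell type, Slc2a5, Slc2a2, Mlx, Mlxip and Arrdc4, up to 4 called genes of each list per cell type, and the 5 most similar genes of each of the 4. Other list members and Gm15441 were named after their values were seen. A gene of the fructose and ChREBP target lists is not reported here, and the counts and medians of these lists leave it out. Gene positions are from GENCODE M21 and promoter sequences from RefSeq (GRCm38.p6), which are matched by symbol, and the sources used here do not name the annotation used for counting. All 4 genes matched both sources.

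The other settings tried were RLE size factors, DESeq2 1.42.0, all genes with a count, sums thinned to the lowest total, a replicate block, cells under 10% mitochondrial UMIs and each library left out in turn. A run without the 5% of cells with the most UMIs (764 cells) was chosen after seeing the data. In data simulated from the enterocyte sums (11561 genes), the edgeR test recovered 96% of 50 genes set to a fold of 0.5, and the run with 4 folds of 50 genes each also made 25 false calls. In data simulated from the stem cell sums (9314 genes) the test recovered 60% of 50 genes at a fold of 0.5, with 3 false calls. The changed genes were drawn from those at 10 CPM or more. They outnumbered the genes called in these data, which makes the adjusted threshold easier to reach, so recovery may be overstated.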

Additional observations from a re-analysis of the deposited data

Results flagged for a closer look

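The diet difference of both fructose-breakdown enzyme genes differed between enterocytes and stem cells in the edgeR test of the difference itself. The log2 fold change in enterocytes minus that in stem cells was -0.75 for Khk (edgeR adjusted p = 0.0128) and -0.88 for Tkfc (adjusted p = 0.0151). The Khk call was lost without ketogenic library 1 (adjusted p = 0.119), ketogenic library 2 (0.858) or control library 1 (0.0856), and the Tkfc call without ketogenic library 2.

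Between enterocytes and goblet cells the same test passed for Khk, with a difference of -0.61 (edgeR adjusted p = 0.0333) and for Slc2a5, with -2.02 (adjusted p = 0.00583). Khk passed in no fit that left out a library (adjusted p = 0.0830 to 0.708), and Slc2a5 was not called without control library 1 (adjusted p = 0.382). The value for Slc2a5 rests on 51 and 33 UMIs in ketogenic and 28 and 38 in control goblet cells, and on 78 and 58 UMIs in ketogenic and 369 and 220 in control enterocytes.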

How the results depend on the processing

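The signs of the Khk and Tkfc differences in all cells, enterocytes, transit amplifying cells, stem cells and goblet cells, and of Mlxipl in these sums, were the same in every setting run. Of 630 log2 fold changes of named genes under another setting, 534 kept their sign and their side of the threshold, 63 passed where the reported value did not, 10 no longer passed and 23 changed sign. Numbers of genes past the threshold moved far more.

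With DESeq2, 213 genes passed in all cells, 178 in enterocytes, 13 in stem cells, 26 in goblet cells, 3 in tuft cells, 213 in tip-rich and 46 in tip-poor enterocytes. Of the 4 genes, 3, 2 and 2 passed with it in all cells, enterocytes and tip-poor enterocytes. Without a filter on low counts, 407 genes passed in all cells, 313 in enterocytes, 279 in transit amplifying cells, 74 in stem cells, 44 in the Paneth class, 27 in enteroendocrine cells, 0 in tuft cells and 718 in tip-rich enterocytes, and 3 of the 4 genes in each of all cells, enterocytes and transit amplifying cells. The test of enterocytes against stem, transit amplifying and goblet cells then called 49, 20 and 158 genes. With RLE size factors 4 genes passed in tuft cells.

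With cells under 10% mitochondrial UMIs, 51 genes passed in enterocytes, 20 in the Paneth class and 2 in tuft cells, and 2 of the 4 genes in enterocytes and in transit amplifying cells. With sums thinned to the lowest total, 133 genes passed in transit amplifying cells and 12 in tuft cells, with 0 of the 4 genes in enterocytes and 2 in transit amplifying cells. Without the 5% of cells with the most UMIs, 14 genes passed in all cells, 6 in enterocytes and 9 in enteroendocrine cells, and 0 of the 4 in enterocytes. These settings were not run for the split of enterocytes. The causes were not tested.

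Signs changed for values near 0. Txnip was at -0.0042 (DESeq2) and -0.0084 (no filter) in tip-rich enterocytes and at -0.028 in the Paneth class (without the 5%). Arrdc4 in stem cells was at 0.091 with the mitochondrial limit. In tuft cells Mlxipl was at 0.066 with that limit and at 0.0069 without the 5%, and Khk at 0.17 without the 5%. Mlxipl in enteroendocrine cells was at 0.033 with thinned sums.

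Leaving out each library in turn gave 29 to 364 genes in all cells, 12 to 760 in enterocytes, 37 to 290 in transit amplifying cells, 48 to 100 in stem cells, 99 to 189 in goblet cells, 2 to 31 in the Paneth class, 11 to 94 in enteroendocrine cells, 6 to 37 in tuft cells, 20 to 382 in tip-rich and 1 to 348 in tip-poor enterocytes. Of the 4 genes, 0 to 3 passed in all cells, in enterocytes and in tip-poor enterocytes, 1 to 3 in transit amplifying cells, 0 to 2 in stem cells and 0 to 1 in goblet cells. The highest counts mostly came without control library 2. The test against stem, transit amplifying and goblet cells called 14 to 358, 8 to 220 and 6 to 115 genes. Over the same fits Txnip ran from -0.12 to 0.25 in enterocytes, -0.21 to 0.20 in tip-rich and -0.038 to 0.26 in tip-poor enterocytes, and -0.018 to 0.28 in goblet cells, and its enterocyte minus goblet difference from -0.22 to 0.045. Slc2a5 ran from -0.20 to 0.50 in goblet cells, Mlx from -0.36 to 0.034 in all cells and -0.42 to 0.015 in enterocytes, Arrdc4 from -0.28 to 0.041 in stem cells, Mlxipl from -0.20 to 0.049 in enteroendocrine and -0.48 to 0.29 in tuft cells, and Khk from -0.64 to 0.54 in tuft cells.

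Libraries of both diets share the numbers 1 and 2 in their titles, with nothing to say what the number stands for. With the replicate block, 69 genes passed in all cells, 137 in enterocytes, 200 in transit amplifying cells, 99 in stem cells, 104 in goblet cells, 57 in the Paneth class, 19 in enteroendocrine cells, 4 in tuft cells, 210 in tip-rich and 9 in tip-poor enterocytes. Of the 4 genes, 2 passed with it in each of all cells, enterocytes, transit amplifying cells and stem cells. Deviations of same-numbered libraries from their diet mean had a correlation of 0.134 over genes in enterocytes and of -0.0469 to 0.0991 in all cells and the other types.

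With 2 libraries per diet the tests detect mainly large differences, and a value that misses the threshold is not shown to be unchanged. In the Paneth class, enteroendocrine and tuft cells the 4 genes rest on few UMIs.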
